A study of Mus musculus with 8 samples.

Results

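The 34 genes described here encode proteins of the cardiac sarcomere and of its assembly and turnover. They were taken by symbol from the 30495 genes of the deposited count table, and each matched 1 row. By role they were 5 genes of the thick filament (Ttn, Mybpc3, Myl2, Myl3, Mylk3), 8 of the thin filament (Actc1, Tpm1, Tnnt2, Tnni3, Tnnc1, Tmod1, Lmod2, Lmod3), 5 of the M-band and its kinases (Myom1, Myom2, Myom3, Alpk3, Speg), 10 of the Z-disc (Actn2, Myoz2, Tcap, Myot, Pdlim3, Pdlim5, Synpo2l, Smpx, Nebl, Des) and 6 of assembly and turnover (Unc45b, Smyd1, Trim54, Trim55, Trim63, Fbxo32). Expression was measured by poly(A) RNA sequencing of whole right ventricles of female mice aged 8 weeks. WT control and Fpr2-KO control mice stayed at normal oxygen for 21 days. WT SuHx and Fpr2-KO SuHx mice received Sugen, a VEGF receptor inhibitor, at 20 mg/kg and stayed in hypoxia for 3 weeks, which raises pulmonary artery pressure in rodents. Fpr2-KO mice lack the gene of formyl peptide receptor 2. The genotype field of 3 Fpr2-KO samples names Fpr3-KO, Fpr4-KO or Fpr5-KO, and the sample titles were followed. The labels do not say how the allele was made, whether animals were pooled or whether the libraries of a group are separate mice. Each group has 2 libraries, named here by the number in their column of the table, and p-values measure the spread between libraries, which may be technical.

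The sarcomere is the contractile unit of striated muscle. Myosin thick filaments, tied together at the M-band, pull on actin thin filaments that are anchored at the Z-disc, and calcium switches the thin filament on through troponin and tropomyosin. Titin spans from Z-disc to M-band as a spring, leiomodins and tropomodulin set thin filament length from the pointed end, and chaperones, methyltransferases and ubiquitin ligases build and clear the proteins. In the heart the mix of these proteins differs between chambers and with age and load.

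Libraries held 67965311 to 76292772 counts, of which mitochondrially coded genes took 24.2% to 26.1% in the 4 controls and 26.4% to 28.2% in the 4 SuHx libraries. This share moved with SuHx without overlap, and its part in the results was not tested beyond scaling without these genes. Fpr2 itself had 12 to 23 counts in the WT libraries and 0 in all 4 Fpr2-KO libraries. A pair of libraries stood apart. Fpr2-KO SuHx library 2 held 2589 CPM (TMM-scaled counts as parts of the library total) of 8 atrial muscle markers summed, against 54.3 to 341 CPM in the other 7 libraries. WT control library 1 had the highest Trim63 and Fbxo32 of all 8 libraries. Some values that rest on either library are also given without it. Values printed without such a figure can still rest on these libraries. In whole tissue, fewer cells of a type and less RNA per cell cannot be told apart.

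Promoter sequences were available from RefSeq (GRCm38.p6, the assembly of mm10) for 28 of the 34 genes, in 39 windows of 250 bases before the annotated start. They are shown because the genes of each pair below had values in the same direction with SuHx in both genotypes. Actc1 and Mybpc3 were higher and Pdlim3 and Trim54 lower, each pair holding the largest averaged changes among called genes that have 1 start in RefSeq. Capitals mark motifs read on both strands, which are the CArG box of serum response factor, the MEF2 site and CATTCC, the MCAT element that TEAD factors bind, in either orientation.
Actc1, chr2:114052876-114053125, minus strand: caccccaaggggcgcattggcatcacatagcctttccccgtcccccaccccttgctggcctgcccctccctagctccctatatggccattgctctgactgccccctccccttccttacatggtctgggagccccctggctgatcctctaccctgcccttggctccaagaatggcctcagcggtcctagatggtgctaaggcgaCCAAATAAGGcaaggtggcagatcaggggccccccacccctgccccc
Mybpc3, chr2:91117894-91118143, plus strand: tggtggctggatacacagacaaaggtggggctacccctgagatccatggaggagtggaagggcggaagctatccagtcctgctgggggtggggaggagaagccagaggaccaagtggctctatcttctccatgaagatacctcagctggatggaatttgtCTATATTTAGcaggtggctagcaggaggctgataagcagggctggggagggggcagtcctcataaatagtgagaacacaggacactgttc
Pdlim3, chr8:45885237-45885486, plus strand: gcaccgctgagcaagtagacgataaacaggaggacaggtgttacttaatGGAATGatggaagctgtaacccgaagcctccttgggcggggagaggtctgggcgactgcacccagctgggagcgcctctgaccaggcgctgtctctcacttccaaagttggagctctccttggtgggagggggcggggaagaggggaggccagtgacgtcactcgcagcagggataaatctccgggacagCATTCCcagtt
Trim54, chr5:31116362-31116611, plus strand: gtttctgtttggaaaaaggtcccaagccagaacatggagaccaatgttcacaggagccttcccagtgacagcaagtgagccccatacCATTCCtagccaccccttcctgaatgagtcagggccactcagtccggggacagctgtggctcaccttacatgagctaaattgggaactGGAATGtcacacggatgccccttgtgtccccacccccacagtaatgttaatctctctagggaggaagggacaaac
The Actc1 window held 1 CArG box, which began 47 bases before the start, and the Mybpc3 window 1 MEF2 site at 90 bases. Pdlim3 held 2 MCAT elements, at 201 and 11 bases, and Trim54 held 2, at 163 and 75 bases. The element was not particular to lower genes. It was also in a window of Tmod1, Tpm1, Tnnc1 and Nebl, called higher in at least 1 SuHx test, and of Mylk3 and Tnnt2, called lower. A CArG box was found in 4 of the 39 windows of these genes (10.3%) against 1.47% of all 32851 windows of the same length. A MEF2 site was in 8 (20.5%, against 2.92%), CATTCC in 12 (30.8%, against 12.6%), TATAAA in 5 (12.8%, against 12.4%) and the E-box CANNTG in 31 (79.5%, against 66.2%). The MEF2 site and TATAAA can overlap. The matches are descriptions of letters, not of bound sites.

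To compare levels between genes, CPM was divided by a length factor for each gene, its ratio of CPM to the authors' FPKM (fragments scaled by length and depth) in the WT control libraries. On this length-scaled level, averaged over the 8 libraries, Actc1, the cardiac alpha-actin gene, was the most abundant of the 34 at 3074. It was followed by the ventricular light chain genes Myl3 at 1419 and Myl2 at 1358, then Tcap, Tnni3, Tnnc1, Tpm1, Tnnt2, Mybpc3, Des and Actn2 in that order. Ttn stood at 25.8, and Myom3 was lowest at 0.423.

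The 34 genes together took 5.34% and 5.46% of the non-mitochondrial counts in WT control, 6.70% and 6.57% in WT SuHx, 6.04% and 5.75% in Fpr2-KO control, and 6.36% and 6.52% in Fpr2-KO SuHx. All 4 SuHx libraries lay above all 4 control libraries, and both Fpr2-KO controls above both WT controls. The summed shares of the roles differed in direction, and abundant genes weighed most in them. Mean Actc1 was 2596 CPM in WT control and 7669 in WT SuHx, while mean Tnnt2 was 6023 and 4866. In Fpr2-KO control and Fpr2-KO SuHx, mean Actc1 was 4808 and 7033, mean Tpm1 6643 and 6672, and mean Tnnt2 5840 and 4584. Of the 8 thin filament genes, 6 had positive and 2 negative log2 fold changes with SuHx in Fpr2-KO. Shares without Actc1 were not taken, so the sums do not show a shift of the genes as a set. Thick filament genes held 1.29% to 1.64% in controls and 1.83% to 1.99% in SuHx, and thin filament genes 2.32% to 2.89% and 3.22% to 3.40%. The M-band share went the other way, from 0.440% to 0.550% in controls to 0.277% to 0.324% in SuHx. Its genes did not all do so. In WT, mean Myom2 was 2780 CPM in control and 925 in SuHx, against 998 and 986 for Myom1 and 135 and 176 for Speg. Z-disc genes held 0.883% to 0.986% and 0.788% to 0.862%. For assembly and turnover genes the groups overlapped, and WT control library 1 was highest at 0.200%.

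**Figure D1:**
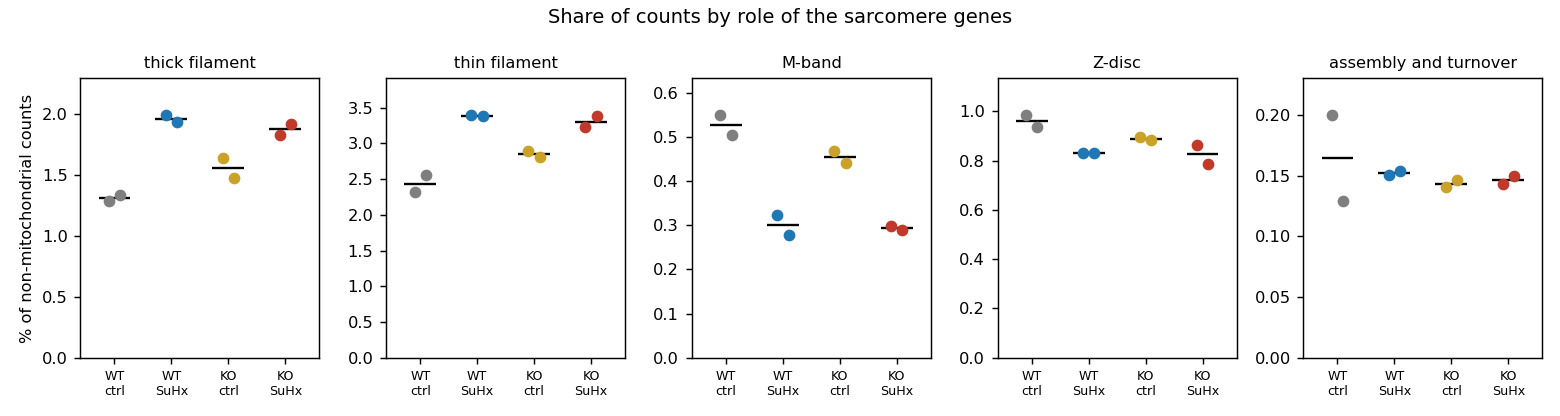
Share of non-mitochondrial counts (%, vertical axes from 0) taken by the genes of each role in each library, by group; points are libraries, lines group means, n = 2 libraries a group. Thick and thin filament shares were higher, and M-band and Z-disc shares lower, in all 4 SuHx libraries than in all 4 control libraries. Abundant genes weigh most in these sums, and the thin filament share without Actc1 was not taken.

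Change with SuHx was tested within each genotype, using edgeR's quasi-likelihood test across all genes, with a gene called at an adjusted p under 0.05. All 34 genes passed the filter on low counts. In WT, 14 of the 34 were called, 9 higher and 5 lower, where 20.5% of the 19083 tested genes were called (10.9% higher and 9.63% lower). In Fpr2-KO, 10 were called, 3 higher and 7 lower, against a background of 10.7% (4.93% higher and 5.75% lower). The 2 comparisons share no library but one estimate of the spread. Mybpc3 and Lmod3 were called higher in both, Myom2, Pdlim3, Des and Trim54 lower in both, and Lmod2 lower in WT but higher in Fpr2-KO. The groups did not overlap for 16 genes that were higher and 12 lower in WT SuHx, beside 32.5% and 30.5% of all tested genes, and for 10 and 13 in Fpr2-KO SuHx, beside 30.9% and 28.1%. A further 7 were called in WT alone and 3 in Fpr2-KO alone. The median log2 fold change of the 34 genes was -0.04 in WT and -0.06 in Fpr2-KO, beside 0.00 and 0.02 over all tested genes. Averaged over genotypes, 17 were called, 8 higher and 9 lower, against 29.6% of all genes (15.5% and 14.1%). Across the averaged groups, 6 genes were higher in every SuHx library than in any control and 8 lower, where 15.6% and 13.6% of all tested genes were.

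The count in WT was 9 without WT SuHx library 3, and 10 to 18 without any other library. The count in Fpr2-KO moved more: it was 4 and 6 when Fpr2-KO SuHx libraries 2 and 3 were left out in turn, 4 and 3 for Fpr2-KO control libraries 2 and 3, 5 without either WT SuHx library, and 15 and 16 without WT control libraries 1 and 2. It was 16 with DESeq2 (5 higher, 11 lower), where 3020 of the 15616 genes with an adjusted p were called. In each of these settings the number called over all tested genes moved in the same direction as the Fpr2-KO count. Lmod3, Myom2 and Trim54 kept their calls in both genotypes under all 15 alternatives run.

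**Figure D2:**
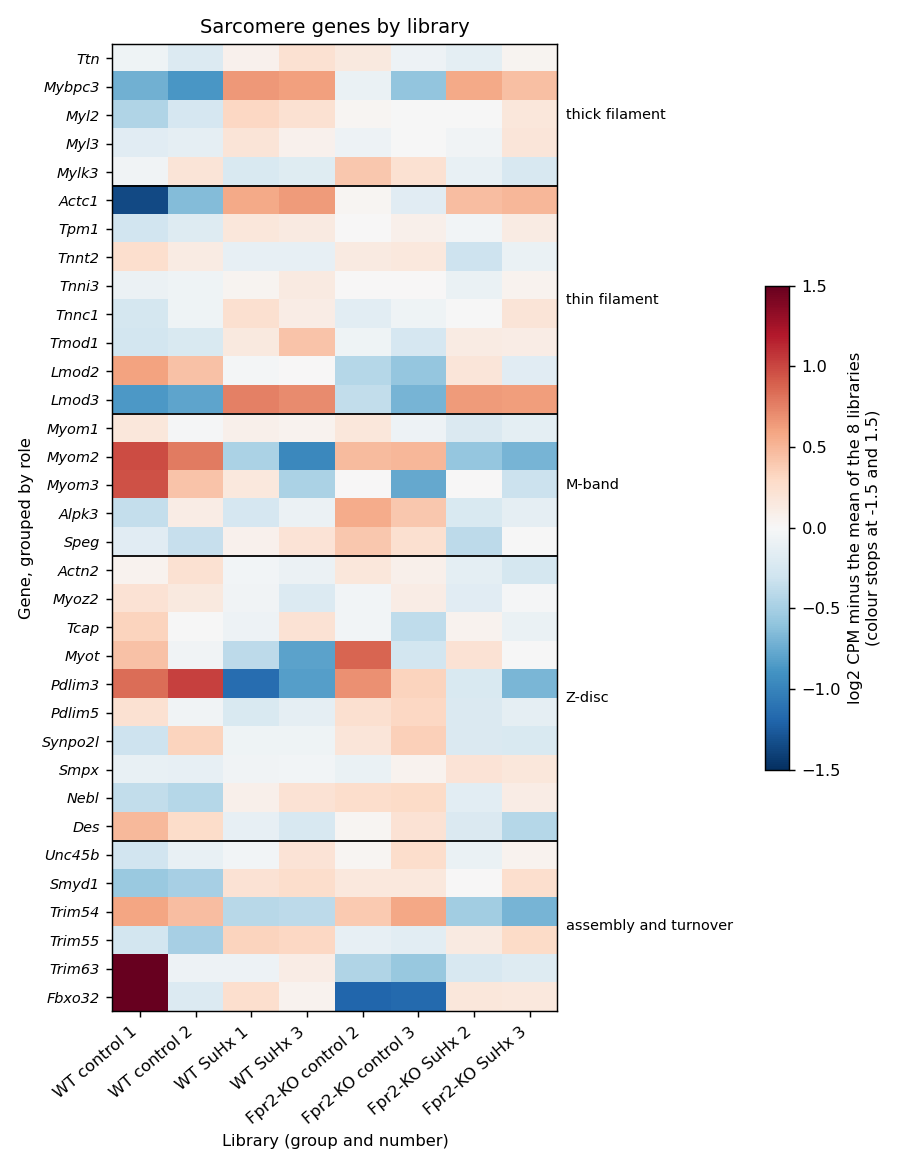
Level of each gene in each library, as log2 CPM minus its mean over the 8 libraries (colour), with genes in rows by role and libraries in columns. Mybpc3, Actc1 and Lmod3 were higher and Myom2, Pdlim3 and Trim54 lower in the 4 SuHx columns, and Trim63 and Fbxo32 stood out in WT control library 1.

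**Figure D3:**
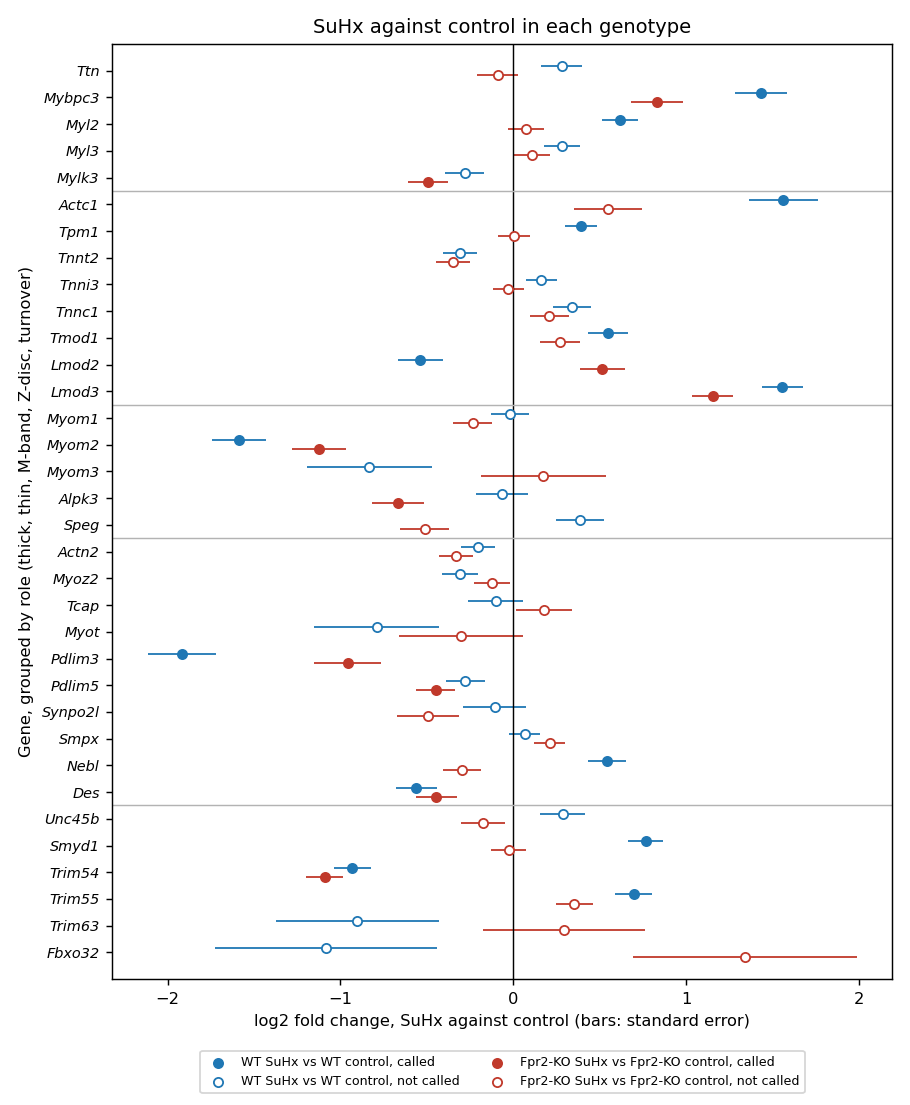
Log2 fold change of SuHx against control (horizontal axis, bars are standard errors) for each gene in WT (blue) and Fpr2-KO (red), filled where the adjusted p was under 0.05, n = 2 libraries a group. Of the 34 genes, 14 points were filled in WT and 10 in Fpr2-KO, and Lmod2 was filled on opposite sides of 0.

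Of the 5 thick filament genes, 2 were called higher in WT, and in Fpr2-KO 1 was called higher and 1 lower. Mybpc3, the gene of cardiac myosin-binding protein C, which tunes the rate of cross-bridge cycling, stood at 1201 and 1075 CPM in the WT control libraries, 3111 and 3039.9 in WT SuHx, 1839 and 1316 in Fpr2-KO control and 2927 and 2698 in Fpr2-KO SuHx. Every SuHx library lay above every control library, and the highest control was Fpr2-KO control library 2. The log2 fold change was 1.43 ± 0.15 (adjusted p = 0.000986) in WT and 0.83 ± 0.15 (adjusted p = 0.0142) in Fpr2-KO. The second of these calls was lost without Fpr2-KO control library 3 (adjusted p = 0.0531) and without Fpr2-KO SuHx library 2 (adjusted p = 0.0864).

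Myl2, the regulatory light chain of ventricular myosin, stood at 2119 and 2435 CPM in the WT control libraries, 3590.4 and 3396 in WT SuHx, 2960.3 and 2888 in Fpr2-KO control and 2888 and 3275 in Fpr2-KO SuHx. The WT controls were the lowest 2 libraries. The gene was called in WT at 0.62 ± 0.11 (adjusted p = 0.00548) but not in Fpr2-KO, at 0.08 ± 0.10 (adjusted p = 0.701). Without WT SuHx library 1 the WT call was lost (adjusted p = 0.0504). Mylk3, the cardiac kinase that phosphorylates this light chain, stood at 583 and 694 CPM in the WT control libraries, 518 and 533 in WT SuHx, 801 and 709 in Fpr2-KO control and 563 and 511 in Fpr2-KO SuHx. It was lower in SuHx in both genotypes without overlap. It was called in Fpr2-KO, at -0.49 ± 0.11 (adjusted p = 0.0325), and not in WT, at -0.28 ± 0.11 (adjusted p = 0.12). The Fpr2-KO call was lost without any 1 of the 6 libraries other than the WT controls (adjusted p = 0.0670 to 0.163), while the averaged call at -0.39 ± 0.08 (adjusted p = 0.00864) held under all 14 alternatives run.

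Myl3, the essential light chain gene, stood at 2862 and 2913 CPM in the WT control libraries, 3666 and 3345 in WT SuHx, 3049 and 3202 in Fpr2-KO control and 3099 and 3649.9 in Fpr2-KO SuHx, and neither genotype was called (0.28 ± 0.10 and 0.11 ± 0.10). Ttn, the gene of titin, was at 0.28 ± 0.12 in WT and -0.09 ± 0.12 in Fpr2-KO and was called in no comparison, with 3209 and 2911 CPM in the WT control libraries, 3516 and 3921 in WT SuHx, 3715 and 3180.2 in Fpr2-KO control and 3028 and 3453 in Fpr2-KO SuHx. Its groups overlapped in Fpr2-KO.

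**Figure D4:**
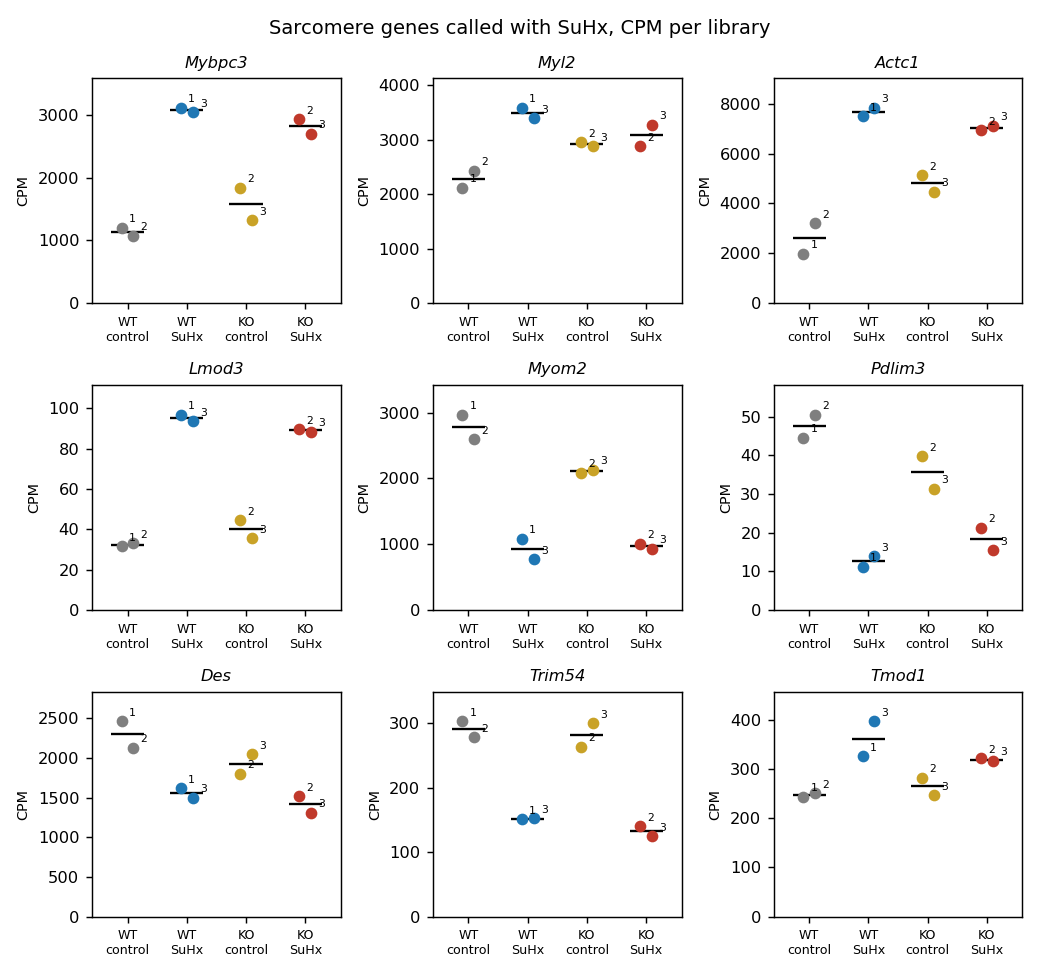
CPM of 9 sarcomere genes called with SuHx in at least 1 genotype, in each library by group (vertical axes from 0); points are libraries with their number, lines group means, n = 2. Mybpc3, Actc1, Lmod3 and Tmod1 were higher and Myom2, Pdlim3, Des and Trim54 lower in all 4 SuHx libraries than in all 4 controls, while Myl2 was low in the WT controls.

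Among the 8 thin filament genes, 4 were called higher and 1 lower in WT, and 2 higher and 0 lower in Fpr2-KO. Actc1 stood at 1984 and 3208 CPM in the WT control libraries, 7499 and 7838 in WT SuHx, 5142 and 4474 in Fpr2-KO control and 6946 and 7119 in Fpr2-KO SuHx. SuHx libraries were alike in both genotypes, whereas the controls ranged from 1984 CPM in WT control library 1 to 5142 CPM in Fpr2-KO control library 2. The change was 1.56 ± 0.20 (adjusted p = 0.00197) in WT. In Fpr2-KO it was 0.55 ± 0.19 (adjusted p = 0.113) and not called with all 8 libraries. Under the 15 alternatives run, the Fpr2-KO value ran from 0.45 to 0.65 and was called in 5. Without either WT control library, which this value does not use, it stayed at 0.55 while the standard error fell to 0.10. The WT change was 1.26 ± 0.13 (adjusted p = 0.00167) without WT control library 1.

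The genes that act at the pointed end of the thin filament moved in different ways. Lmod3, a leiomodin that nucleates actin filaments and is best known from skeletal muscle, stood at 31.5 and 33.2 CPM in the WT control libraries, 96.9 and 93.7 in WT SuHx, 44.4 and 35.5 in Fpr2-KO control and 89.7 and 88.4 in Fpr2-KO SuHx. All 4 SuHx libraries lay above all 4 controls. The changes were 1.56 ± 0.12 (adjusted p = 0.000518) in WT and 1.16 ± 0.12 (adjusted p = 0.00306) in Fpr2-KO. Lmod2, the cardiac leiomodin that lengthens thin filaments, stood at 725 and 650.1 CPM in the WT control libraries, 469 and 479 in WT SuHx, 355 and 319 in Fpr2-KO control and 541 and 424 in Fpr2-KO SuHx. It was highest in WT control and lowest in Fpr2-KO control, with both SuHx groups between them. It was therefore called lower in WT, at -0.54 ± 0.13 (adjusted p = 0.0208), and higher in Fpr2-KO, at 0.52 ± 0.13 (adjusted p = 0.0393). The WT call was lost without WT control library 1 (adjusted p = 0.0917) and without WT SuHx libraries 1 or 3 (adjusted p = 0.126 and 0.104). The Fpr2-KO call was lost without any 1 library of Fpr2-KO control or WT SuHx and without Fpr2-KO SuHx library 2 (adjusted p = 0.0748 to 0.217). Tmod1, the pointed-end cap, stood at 243 and 251 CPM in the WT control libraries, 326 and 397 in WT SuHx, 283 and 247 in Fpr2-KO control and 321 and 317 in Fpr2-KO SuHx. It was higher in SuHx in both genotypes without overlap and was called in WT (0.55 ± 0.12 (adjusted p = 0.0132)) but not in Fpr2-KO (0.27 ± 0.12). Its WT call was lost without WT control library 1 (adjusted p = 0.0531) and without WT SuHx library 3 (adjusted p = 0.105).

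The length-scaled ratio of Lmod3 to Lmod2 was 0.0388 and 0.0455 in WT control, 0.111 and 0.0991 in Fpr2-KO control, 0.184 and 0.174 in WT SuHx, and 0.148 and 0.186 in Fpr2-KO SuHx. Lmod2 remained the more abundant leiomodin in every library, and the ratios of control and SuHx libraries did not overlap.

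Tpm1, which covers the myosin sites on actin, stood at 5302 and 5658 CPM in the WT control libraries, 7283 and 7107 in WT SuHx, 6497 and 6789 in Fpr2-KO control and 6289.8 and 7055 in Fpr2-KO SuHx and was called in WT only, at 0.39 ± 0.09 (adjusted p = 0.0198). That call was lost without WT control library 1 (adjusted p = 0.0925), without WT SuHx library 1 (adjusted p = 0.124) and without library 3 (adjusted p = 0.0967). Tnnt2, the troponin subunit that binds tropomyosin, stood at 6274 and 5772 CPM in the WT control libraries, 4857 and 4875 in WT SuHx, 5796 and 5884 in Fpr2-KO control and 4249 and 4919 in Fpr2-KO SuHx. It was lower in SuHx in both genotypes without overlap, at -0.31 ± 0.10 and -0.35 ± 0.10, and was called only in the averaged test, at -0.33 ± 0.07 (adjusted p = 0.00896). Tnnc1, the calcium-binding subunit, stood at 863 and 996 CPM in the WT control libraries, 1230.0 and 1124 in WT SuHx, 933 and 993 in Fpr2-KO control and 1036 and 1189 in Fpr2-KO SuHx and was called higher only in the averaged test, at 0.27 ± 0.08 (adjusted p = 0.032). This call was lost without any 1 of WT control library 1, both WT SuHx libraries, both Fpr2-KO control libraries and Fpr2-KO SuHx library 3 (adjusted p = 0.0548 to 0.121). Tnni3, the inhibitory subunit, stood at 2547 and 2599.9 CPM in the WT control libraries, 2792 and 2972 in WT SuHx, 2732 and 2725 in Fpr2-KO control and 2539 and 2813 in Fpr2-KO SuHx and was called nowhere. In the averaged test Actc1 rose and Tnnt2 fell, and their length-scaled ratio was 1.51 and 2.66 in WT control, 4.25 and 3.64 in Fpr2-KO control, 7.4 and 7.7 in WT SuHx, and 7.83 and 6.93 in Fpr2-KO SuHx.

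Of the 5 M-band genes, 1 was called lower in WT and 2 in Fpr2-KO, and none higher in either. Myom2, the gene of M-protein, which crosslinks myosin at the M-band, stood at 2969 and 2592 CPM in the WT control libraries, 1080.3 and 769 in WT SuHx, 2086 and 2130.0 in Fpr2-KO control and 1004 and 929.9 in Fpr2-KO SuHx. All 4 SuHx libraries lay below all 4 control libraries. The changes were -1.59 ± 0.16 (adjusted p = 0.000789) in WT and -1.12 ± 0.15 (adjusted p = 0.00627) in Fpr2-KO. Myom1, the main myomesin, stood at 1061 and 936 CPM in the WT control libraries, 994 and 978 in WT SuHx, 1061 and 894 in Fpr2-KO control and 809.8 and 852 in Fpr2-KO SuHx and was not called in any comparison (-0.02 ± 0.11 and -0.24 ± 0.11 with SuHx). The length-scaled ratio of Myom2 to Myom1 was 3.31 and 3.27 in WT control, 2.32 and 2.81 in Fpr2-KO control, 1.28 and 0.929 in WT SuHx, and 1.47 and 1.29 in Fpr2-KO SuHx, with no overlap between control and SuHx. Myom3 had 105 to 337 counts a library, 1.58 to 5.19 CPM, and was not called.

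The kinase genes of this role were at 0.59 ± 0.15 (Alpk3, adjusted p = 0.0775) and 0.57 ± 0.14 (Speg, adjusted p = 0.069) in Fpr2-KO control against WT control, and neither passed. Alpk3, whose protein sits at the M-band, stood at 90.7 and 125 CPM in the WT control libraries, 97.1 and 109 in WT SuHx, 171 and 153 in Fpr2-KO control and 98.6 and 105 in Fpr2-KO SuHx. Only the Fpr2-KO controls were high, and the gene was called lower in Fpr2-KO at -0.67 ± 0.15 (adjusted p = 0.0298) but not in WT at -0.07 ± 0.15 (adjusted p = 0.799). The Fpr2-KO call was lost without any 1 of the 6 libraries other than the WT controls (adjusted p = 0.0540 to 0.165). Its averaged value, -0.37 ± 0.11 (adjusted p = 0.0323), was lost without any 1 library other than WT control library 1 (adjusted p = 0.0556 to 0.120). Speg, a large kinase of the myosin light chain kinase family, stood at 143 and 127 CPM in the WT control libraries, 168 and 185 in WT SuHx, 212 and 190.0 in Fpr2-KO control and 122 and 159.9 in Fpr2-KO SuHx. It was higher with SuHx in WT and lower in Fpr2-KO without overlap, and neither passed, at 0.39 ± 0.14 (adjusted p = 0.0877) and -0.51 ± 0.14 (adjusted p = 0.0531). Under the 15 alternatives run, the Fpr2-KO value of Speg ran from -0.70 to -0.33 and passed in 7.

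Of the 10 Z-disc genes, 1 was called higher and 2 lower in WT, and 0 higher and 3 lower in Fpr2-KO. Pdlim3, the actinin-associated LIM protein, stood at 44.5 and 50.5 CPM in the WT control libraries, 11.2 and 14 in WT SuHx, 39.8 and 31.4 in Fpr2-KO control and 21.3 and 15.4 in Fpr2-KO SuHx. SuHx libraries lay below all controls, and WT SuHx was the lowest group. The change was -1.92 ± 0.20 (adjusted p = 0.000905) in WT and -0.96 ± 0.19 (adjusted p = 0.0208) in Fpr2-KO. The Fpr2-KO call was lost without Fpr2-KO control library 2 (adjusted p = 0.0953) or 3 (adjusted p = 0.0596) and without Fpr2-KO SuHx library 3 (adjusted p = 0.110). Des, the gene of desmin, the intermediate filament that links Z-discs of neighbouring myofibrils, stood at 2463 and 2131 CPM in the WT control libraries, 1617 and 1498 in WT SuHx, 1804 and 2049 in Fpr2-KO control and 1521 and 1311 in Fpr2-KO SuHx. It was lower in all SuHx libraries, at -0.56 ± 0.12 (adjusted p = 0.0134) in WT and -0.44 ± 0.12 (adjusted p = 0.0492) in Fpr2-KO. The WT call was lost without WT control library 1 and without either WT SuHx library (adjusted p = 0.0650 to 0.104). The Fpr2-KO call was lost without any 1 of the 6 libraries other than the WT controls (adjusted p = 0.0708 to 0.237). It was also lost when mitochondrially coded genes were left out of the scaling (adjusted p = 0.0536). The averaged value for Des, -0.50 ± 0.08 (adjusted p = 0.0033), held under all 14 alternatives run.

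Pdlim5, a related PDZ and LIM protein that tethers kinases, stood at 702 and 575 CPM in the WT control libraries, 509 and 545 in WT SuHx, 705 and 742 in Fpr2-KO control and 514 and 546 in Fpr2-KO SuHx. It was called lower in Fpr2-KO (-0.45 ± 0.11 (adjusted p = 0.0399)) and not in WT (-0.28 ± 0.11), and its Fpr2-KO call was lost without any 1 of the 6 libraries other than the WT controls (adjusted p = 0.0754 to 0.197). The averaged value, -0.36 ± 0.08 (adjusted p = 0.0101), was lost without WT SuHx library 1 (adjusted p = 0.0517). Nebl, the gene of nebulette, which ties thin filaments to the Z-disc, stood at 190.3 and 183 CPM in the WT control libraries, 259 and 285 in WT SuHx, 295 and 299 in Fpr2-KO control and 219 and 264 in Fpr2-KO SuHx. The WT controls were the low group, and the values ran in opposite directions, at 0.54 ± 0.11 (adjusted p = 0.0111) with SuHx in WT and -0.30 ± 0.11 (adjusted p = 0.123) in Fpr2-KO. The WT call was lost without WT SuHx library 3 (adjusted p = 0.0873).

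Actn2, the alpha-actinin that crosslinks actin at the Z-disc, stood at 1411 and 1597 CPM in the WT control libraries, 1327 and 1287 in WT SuHx, 1537 and 1437 in Fpr2-KO control and 1232 and 1131 in Fpr2-KO SuHx and was called lower only in the averaged test, at -0.27 ± 0.07 (adjusted p = 0.0214). The call was lost without WT control library 2, either WT SuHx library, Fpr2-KO control library 2 or Fpr2-KO SuHx library 3 (adjusted p = 0.0575 to 0.0906). Tcap, the gene of telethonin, which joins the ends of titin, lay between 997 and 1637 CPM and was called nowhere. Neither were Myoz2, which binds calcineurin (-0.31 ± 0.10 in WT and -0.12 ± 0.10 in Fpr2-KO), Synpo2l (-0.11 ± 0.18 and -0.49 ± 0.18) and the small muscle protein gene Smpx (0.07 ± 0.09 and 0.21 ± 0.09). Myot, the gene of myotilin, was rare, at 9.55 to 30.4 CPM, with values of -0.79 ± 0.36 and -0.30 ± 0.36 that did not pass.

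Of the 6 genes of assembly and turnover, 2 were called higher and 1 lower in WT, and 0 higher and 1 lower in Fpr2-KO. The 3 MuRF ubiquitin ligases of the TRIM family, which bind titin or microtubules and tag muscle proteins, did not move together. Trim54 stood at 303 and 278 CPM in the WT control libraries, 151 and 153 in WT SuHx, 263 and 300.0 in Fpr2-KO control and 140.1 and 124 in Fpr2-KO SuHx. Each SuHx library lay below every control, and the changes were -0.93 ± 0.11 (adjusted p = 0.00125) in WT and -1.09 ± 0.11 (adjusted p = 0.00253) in Fpr2-KO. Trim55 went the other way, at 54.4 and 46.8 CPM in the WT control libraries, 82.8 and 81.5 in WT SuHx, 60.5 and 59 in Fpr2-KO control and 72.6 and 80.1 in Fpr2-KO SuHx. It was called in WT (0.70 ± 0.11 (adjusted p = 0.00362)) and not in Fpr2-KO, at 0.35 ± 0.11 (adjusted p = 0.0692). Under the 15 alternatives run, the Fpr2-KO change of Trim55 ran from 0.30 to 0.42 and was called in 3. The length-scaled ratio of Trim54 to Trim55 was 10.3 and 11.0 in WT control, 8.07 and 9.43 in Fpr2-KO control, 3.38 and 3.48 in WT SuHx, and 3.58 and 2.87 in Fpr2-KO SuHx.

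In WT control, the levels of Trim63 and Fbxo32, the ubiquitin ligase genes best known as markers of muscle atrophy, depended on 1 library. Trim63 stood at 425 and 142 CPM in the WT control libraries, 142 and 161 in WT SuHx, 109 and 101 in Fpr2-KO control and 127 and 131 in Fpr2-KO SuHx. Fbxo32 stood at 380.0 and 86.1 CPM in the WT control libraries, 118 and 102 in WT SuHx, 43.2 and 43.9 in Fpr2-KO control and 111 and 109.9 in Fpr2-KO SuHx. Both were highest in WT control library 1, far above library 2 of the same group. With all libraries, neither gene was called anywhere, and the SuHx change of Fbxo32 was -1.08 ± 0.64 (adjusted p = 0.305) in WT and 1.34 ± 0.65 (adjusted p = 0.259) in Fpr2-KO. Trim63 was at -0.90 ± 0.47 (adjusted p = 0.244) and 0.29 ± 0.47 (adjusted p = 0.748).

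Without WT control library 1 the WT values turned positive, to 0.36 ± 0.12 for Fbxo32 (adjusted p = 0.0940) and 0.10 ± 0.12 for Trim63 (adjusted p = 0.646). Fbxo32 was then called higher in Fpr2-KO SuHx at 1.34 ± 0.10 (adjusted p = 0.000599). It was also called lower in Fpr2-KO control than in WT control, at -0.98 ± 0.12 (adjusted p = 0.0227). With WT control library 2 left out instead, Fbxo32 and Trim63 were called lower with SuHx in WT, at -1.79 ± 0.12 (adjusted p = 0.000161) and -1.48 ± 0.12 (adjusted p = 0.000267). The WT control level of these 2 genes therefore depends on the library kept. The Fpr2-KO change of Fbxo32 uses no WT level, so leaving out a WT library cannot move it. Its levels were close within each Fpr2-KO group, so leaving out 1 of those libraries could move it little. It was 1.33 to 1.36 under all 15 alternatives run and was called in 4 of them. Fbxo32 also stayed lower in Fpr2-KO control than in WT control under all 15, at -3.11 to -0.97.

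Smyd1, a methyltransferase of striated muscle needed for myofibril organisation, stood at 244 and 254 CPM in the WT control libraries, 419 and 429.9 in WT SuHx, 402 and 400.0 in Fpr2-KO control and 361 and 427 in Fpr2-KO SuHx. It was called higher with SuHx in WT (0.77 ± 0.10 (adjusted p = 0.00197)), while in Fpr2-KO the controls were already at the level of the SuHx libraries (-0.03 ± 0.10). Smyd1 overlaps Krcc1 on the opposite strand, whose counts averaged 11.8% of those of Smyd1, and the strand setting of the counting is not given. Unc45b, the chaperone of myosin folding, was at 0.29 ± 0.13 in WT and -0.18 ± 0.13 in Fpr2-KO and was not called.

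Genotype was compared first in control mice. In these, 3 of the 34 genes were called, 2 higher and 1 lower in Fpr2-KO, against 2.6% of all tested genes (1.43% higher and 1.18% lower). They were Smyd1 (0.69 ± 0.10 (adjusted p = 0.0218)), Nebl (0.67 ± 0.11 (adjusted p = 0.0261)) and Lmod2 (-1.03 ± 0.13 (adjusted p = 0.0187)). Actc1 was at 0.89 ± 0.20 (adjusted p = 0.056) and not called. The groups did not overlap for 16 genes that were higher and 9 that were lower in Fpr2-KO control, where 23.5% and 24.3% of all tested genes did not overlap. The median of the 34 genes was 0.11, beside 0.00 over all tested genes.

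The count depends on single libraries: it was 2 without WT control library 1 (Lmod2 and Fbxo32), 9 without WT control library 2, and 0 without either Fpr2-KO control library. Smyd1, without WT control library 1, was at 0.66 ± 0.13 (adjusted p = 0.0725) and Nebl at 0.70 ± 0.14 (adjusted p = 0.0761). Without Fpr2-KO control libraries 2 and 3 in turn, the adjusted p of Lmod2 was 0.0779 and 0.105, that of Smyd1 0.0779 and 0.105, and that of Nebl 0.0850 and 0.117. Nebl also lost its call without WT SuHx library 1 (adjusted p = 0.0516) or 3 (adjusted p = 0.0513). Blocking on the number in the column name gave 0 called genes (adjusted p = 0.101, 0.138 and 0.141 for Lmod2, Smyd1 and Nebl), while DESeq2 called 10.

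**Figure D5:**
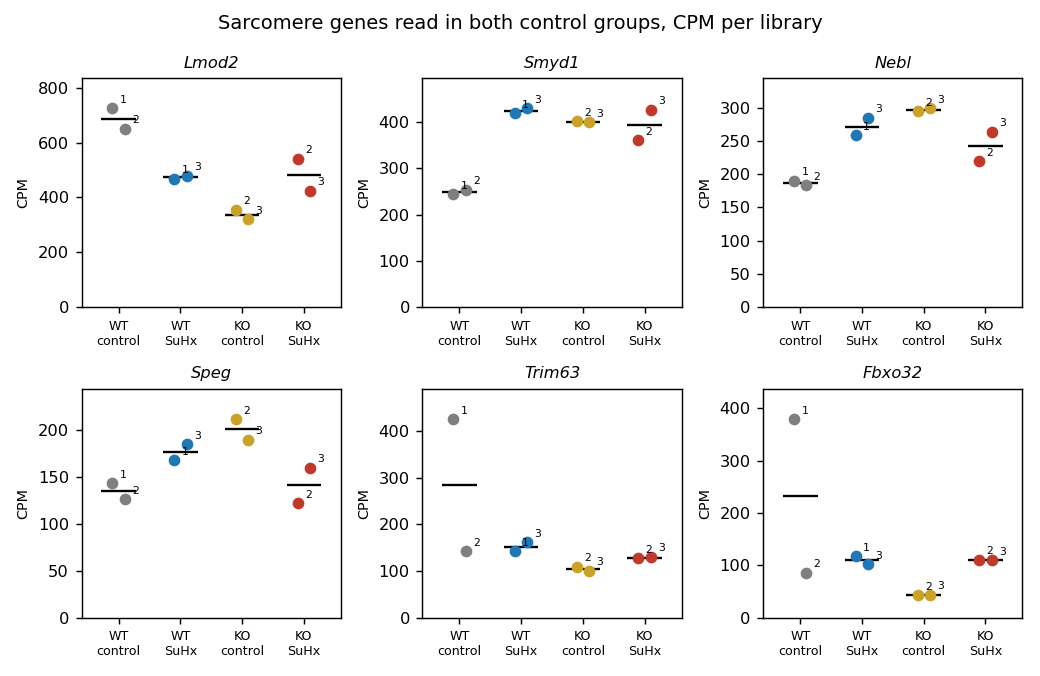
CPM in each library by group (vertical axes from 0) for 6 genes read in both control groups, chosen after their values were seen; points are libraries with their number, lines group means, n = 2. Lmod2 was lower and Smyd1 and Nebl higher in Fpr2-KO control than in WT control, Speg was higher there without being called, and Trim63 and Fbxo32 were highest in WT control library 1.

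In SuHx mice, edgeR called 0 of the 34 genes between the genotypes, and 0% of all tested genes. At an unadjusted p under 0.05 there were 3, and DESeq2 also called 0 of the 34 after adjustment, and 17 of all genes. The values ranged from -0.32 ± 0.14 for Speg to 0.69 ± 0.36 for Myot, with a median of -0.11 beside -0.01 over all genes. The groups did not overlap for 3 genes that were higher and 14 that were lower in Fpr2-KO SuHx, where 17.3% and 19.5% of all tested genes did not overlap.

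The test of whether the SuHx change itself differs between the genotypes called 0 of the 34 genes, and 0% of all genes. At an unadjusted p under 0.05 there were 14, and DESeq2 called 6 of the 34 and 512 of all genes. The largest differences among genes called in either genotype were those of Lmod2 (1.05 ± 0.18 (adjusted p = 0.118)), Actc1 (-1.01 ± 0.28 (adjusted p = 0.212)), Pdlim3 (0.96 ± 0.27 (adjusted p = 0.221)), Nebl (-0.84 ± 0.16 (adjusted p = 0.118)) and Smyd1 (-0.79 ± 0.14 (adjusted p = 0.118)). Larger or similar values stood at Fbxo32 (2.43 ± 0.91), Trim63 (1.20 ± 0.66), Myom3 (1.01 ± 0.51) and Speg (-0.90 ± 0.20), which were called in neither genotype. Without WT control library 2 the test called 8 genes (Actc1, Lmod2, Alpk3, Synpo2l, Nebl, Smyd1, Trim63 and Fbxo32), and without WT control library 1 it called 0. The calls that differ between WT and Fpr2-KO are thus not shown to differ by a test of the difference. All comparisons that use WT control share its libraries, and leaving out WT control library 2 also raised the interaction calls over all tested genes.

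Other genes of the sarcomere and Z-disc, a list of 40 of which 38 were tested, had 7 called higher and 9 lower in WT. In Fpr2-KO 3 were called higher and 13 lower, and the medians were -0.12 in WT and -0.30 in Fpr2-KO. Of all tested genes, 20.5% were called in WT and 10.7% in Fpr2-KO. The called genes with the largest changes in WT were the slow myosin gene Myh7 (-3.08 ± 0.61), skeletal actin Acta1 (2.93 ± 0.31), the actin-binding Xirp1 (-1.88 ± 0.10) and the LIM protein gene Fhl2 (1.78 ± 0.19). In Fpr2-KO they were Acta1 (3.30 ± 0.31), Myh7 (-2.70 ± 0.60), Xirp1 (-1.82 ± 0.10) and Mybpc2, the fast myosin-binding protein C (1.43 ± 0.28). Mybphl, known from atrial muscle, was not called, at -1.94 ± 2.17 in WT and 7.06 ± 2.69 in Fpr2-KO, with 58.8 CPM in Fpr2-KO SuHx library 2 and 0.23 CPM in library 3. Mypn, the gene of myopalladin of the Z-disc, was at -0.48 ± 0.09 in WT and -1.20 ± 0.09 in Fpr2-KO.

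Among 15 transcription factor genes of heart muscle, 4 were called lower in WT and 5 in Fpr2-KO, and 0 higher in either. Over all tested genes, 10.9% were called higher and 9.63% lower in WT, and 4.93% and 5.75% in Fpr2-KO. Both had Gata4 (-0.41 ± 0.11 and -0.75 ± 0.11), Tead1, whose protein binds the MCAT element (-0.56 ± 0.16 and -0.62 ± 0.16), and Mef2d (-0.64 ± 0.10 and -0.52 ± 0.10). Srf, the gene of the CArG-binding factor, was not called (-0.21 ± 0.20 and -0.41 ± 0.20). Of 20 other ubiquitin and protease genes of muscle, 2 were called higher and 9 lower in WT, and 0 and 5 in Fpr2-KO. Fbxl22, which acts on Z-disc proteins, was at 1.85 ± 0.24 in WT, and Fbxo31 and Fbxo30 at -1.78 ± 0.21 and -0.84 ± 0.18. In Fpr2-KO the changes of all 20 genes lay between -0.97 and 0.80.

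Genes of cardiomyocytes outside the sarcomere were also read. Their own log2 fold changes ran from -0.76 to 1.32 in WT, so they set no fixed level for the amount of muscle RNA. Of 16, 7 were called higher and 2 lower in WT, with a median of 0.49, and 3 higher and 3 lower in Fpr2-KO, with a median of -0.03. Of all tested genes, 20.5% were called in WT and 10.7% in Fpr2-KO. Their summed level was 26420 and 26467 CPM in WT control, 34190 and 36136 in WT SuHx, 31402 and 28950 in Fpr2-KO control, and 29475 and 33422 in Fpr2-KO SuHx. The sums of the WT SuHx libraries lay above those of all other libraries. The part of this shift in the sarcomere values was not tested.

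Called genes were also found among markers of other cells. Over all tested genes, 20.5% were called in WT and 10.7% in Fpr2-KO. Mural cell markers in Fpr2-KO, with 1 of 8 called, were near this share. Of 8 genes each, fibroblast markers had 5 called higher and 2 lower in WT and 4 and 0 in Fpr2-KO, endothelial markers 5 and 0 and 2 and 1, mural cell markers 4 and 0 and 1 and 0, and macrophage markers 6 and 0 and 2 and 0. Summed macrophage markers were 125 to 210 CPM in controls and 230 to 293 CPM in SuHx. Of the skeletal muscle markers, 8 were tested and Ckm, which heart muscle also expresses, was the only one called in either genotype. Mylpf and Tnnt3, which define fast skeletal fibres, were at less than 1 CPM in every library. Of the 8 atrial markers 0 were called in either genotype, and their sum was highest in Fpr2-KO SuHx library 2, followed by WT control library 2 at 341 CPM. Their part in the results was not tested. Without Fpr2-KO SuHx library 2, the SuHx change of Pdlim3 in Fpr2-KO was -1.21 ± 0.21.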

How the data were processed

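Right ventricle RNA was sequenced in 8 libraries. The deposited table holds raw gene counts and the authors' FPKM values for each library; 6 FPKM columns known by group only are not used here. The submitters' processing notes name cutadapt 1.9, HISAT2 2.2.1, StringTie 2.1.6, DESeq2, edgeR and the mm10 build; neither their roles nor a strand setting is stated there. The numbers in the column names differ from those in the sample titles for all groups but WT control, so the other columns were placed by group only.

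The tests ran in R 4.3.3 on the counts as deposited, with edgeR 4.0.16. Genes were kept by filterByExpr (19083 of 30495), scaled by TMM, and fitted by robust quasi-likelihood with 1 mean for each of the 4 groups. P-values were adjusted by Benjamini-Hochberg over all 19083 tested genes, and a gene was called at an adjusted p under 0.05. A standard error is the log2 fold change divided by the root of F. The script was tested on simulated data. Alternatives used RLE factors, scaling without mitochondrial genes, no filter, DESeq2 1.42.0, the compared libraries alone, a replicate block and libraries left out.

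The 34 genes, the gene lists and the alternatives were chosen with earlier results of these data known. Values in every library are given for genes called in any comparison, for the largest change in each role and for the main structural proteins. Replicates of every group differed by more than counting noise (chi-square per degree of freedom 23.57 to 76.82).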

Additional observations from a re-analysis of the deposited data

Results flagged for a closer look

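For 3 genes the SuHx and control libraries did not overlap in either genotype, and the direction in WT was opposite to that in Fpr2-KO. The share of all tested genes with this pattern was not counted. Groups did not overlap for 32.5% (higher) and 30.5% (lower) of all tested genes in WT, and for 30.9% and 28.1% in Fpr2-KO. The difference between the genotypes' log2 fold changes (Fpr2-KO minus WT) was 1.05 ± 0.18 for Lmod2 (edgeR adjusted p = 0.118), -0.90 ± 0.20 for Speg (edgeR adjusted p = 0.152) and -0.84 ± 0.16 for Nebl (edgeR adjusted p = 0.118). None of the 3 passed the threshold. Lmod2 was highest in WT control and lowest in Fpr2-KO control, and Speg and Nebl were highest in Fpr2-KO control.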

How the results depend on the processing

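With 2 libraries a group, single libraries moved the counts of called genes. Leaving out each library in turn gave 9 to 18 called in WT, 3 to 16 in Fpr2-KO, 0 to 9 between the control groups, 0 to 0 between the SuHx groups, 0 to 8 for the interaction and 13 to 18 for the averaged test. In Fpr2-KO the count was 16 with DESeq2. The planned limma fit on FPKM was not run. Between the control groups it was 10 with DESeq2, 0 with the 4 libraries compared alone and 0 with the replicate block. For the interaction it was 6 with DESeq2. The causes were not tested. The deviations of same-numbered libraries from their group means correlated at -0.023 to 0.041 in the 7 pairs across groups. With 2 libraries a group the deviations mirror each other, so the pairs are not all independent. Most column numbers also differ from the sample titles, so the check does not settle whether libraries were paired. With the replicate block 12 genes were called in WT, 7 in Fpr2-KO, 0 for the SuHx groups, 0 for the interaction and 15 in the averaged test.

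Over the 34 genes and 6 comparisons, 44 of 204 log2 fold changes took the opposite sign under at least 1 alternative, in 95 repeats, and 0 of these 44 were called with all libraries. Trim63 and Fbxo32 were among them. Without WT control library 1 the WT changes were 0.10 and 0.36 (-1.48 and -1.79 without library 2), also when Fpr2-KO SuHx library 2 was left out, and the averaged Trim63 change was 0.20 (-0.59 without library 2), or 0.21 without both libraries. The averaged Fbxo32 change was -0.22 without WT control library 2 and 0.85 without library 1. Between the SuHx groups Trim63 was 0.16 with the replicate block and Fbxo32 -0.090 without WT SuHx library 3 (0.11 without library 1). Of 643 repeats of 44 called gene and comparison pairs, 540 kept the call, 103 lost it and 0 changed direction.

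Other uncalled SuHx changes took both signs as single libraries were left out. In WT they were -0.10 to 0.080 for Myom1, -0.26 to 0.086 for Tcap, -0.27 to 0.19 for Alpk3 and -0.39 to 0.26 for Synpo2l. In Fpr2-KO they were -0.063 to 0.083 for Tpm1, -0.20 to 0.026 for Ttn, -0.76 to 0.38 for Myot, -0.16 to 0.62 for Myom3, -0.088 to 0.040 for Tnni3, -0.14 to 0.086 for Smyd1 and -0.0020 to 0.16 for Myl2. With the pair of libraries that stood apart both left out, Myom1 was 0.080 and Tcap 0.086 in WT, and Tnni3 0.040, Myom3 -0.00070 and Smyd1 0.086 in Fpr2-KO. Myom1 in WT was 0.0042 with the replicate block, and Tpm1 in Fpr2-KO -0.0067 with RLE scaling.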
